A study of Mus musculus with 38 samples.

Results

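The ERVL family of endogenous retroviruses was followed through 5 bulk RNA-seq experiments in which mouse neural cells had lost Trim28. Members were taken by their annotation alone, as every transposable element (TE) whose family was exactly ERVL, so that the related ERVL-MaLR family was left out. This gave 113 of 1153 TE subfamilies and 118581 of 3494634 individual TEs, and no expression value entered the choice. Of the individual copies, 73722 (62.2%) lay between annotated genes, 41384 (34.9%) in introns and 3475 (2.93%) over an exon.

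The study asked whether loss of Trim28 activates ERVs in neural progenitors and in neurons, and each experiment paired knockout with control libraries. Neural progenitor cell (NPC) cultures came from the forebrain of Rosa26-Cas9 knock-in embryos at embryonic day 13.5 and carried a lentiviral guide RNA with a nuclear RFP reporter. The guide was directed at Trim28 exon 3, 4 or 13 in 6 knockout libraries (2 per guide) and at lacZ in 2 control libraries, and RFP-positive cells were sorted 10 days after transduction. Neuronal nuclei were sorted 2 months after AAV injection into the forebrain of adult mice (the striatum in both CRISPR lines), with vectors whose Synapsin promoter is active in neurons. In Cas9-GFP knock-in mice and in Stop-Cas9-GFP knock-in mice, which express Cas9 only after Cre, there were 4 knockout libraries (guides 13, 3, all 3 together, and 4) against 1 control library each. In floxed Trim28 mice given AAV-Cre, 4 libraries were labelled knockout and 4 control. The study describes these mice as +/- or +/+ for the floxed allele, with an AAV for nuclear GFP injected beside Cre, and names +/+ as the knockout, while the labels give neither genotype nor vector per library. Adult cortex, taken at 3 months of age, gave 3 libraries of Emx1-Cre (+/-), Trim28-fl (+/+) mice, called Emx-KO, and 3 of Emx1-Cre (+/-), Trim28-fl (+/-) controls. Emx1-Cre acts in the embryonic cortical lineage, so the tissue also held cells without recombination. By the study's methods the controls carried the Cre as well as 1 excised allele, while a figure legend of the study calls the control littermates Cre-negative.

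ERVL elements are old retroviral insertions that end in long terminal repeats (LTRs), which carry the promoter, and enclose an internal part with the viral genes. MERVL, the youngest mouse lineage, is annotated as the internal part MERVL-int with its LTR MT2_Mm, and older relatives are annotated as MERVL_2A-int and the MT2A, MT2B and MT2C LTRs. MERVL is known for its burst of transcription in the mouse embryo at the 2-cell stage, where MT2 LTRs also serve as promoters of nearby genes. Trim28 is a corepressor that KRAB zinc finger proteins bring to many ERVs, where it recruits the H3K9 methyltransferase Setdb1.

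The sequences behind the results below are 3 loci of the GRCm38 genome. ERVs of the L group are named for a primer binding site that matches a leucine tRNA and lies just inside the 5′ LTR. The first pair of sequences compares this boundary in a MERVL_2A element within Tcfl5, whose internal pieces rose in Trim28-KO NPCs, with the MERVL-int copy that held the most uniquely mapped reads in NPCs. Capitals mark the TGGTACCAGGAGTGG run of the MERVL copy and its counterpart in the Tcfl5 element, which differs by G10A counted from the 5′ end of the run.
Tcfl5 element, chr2:180631505-180631604, + strand: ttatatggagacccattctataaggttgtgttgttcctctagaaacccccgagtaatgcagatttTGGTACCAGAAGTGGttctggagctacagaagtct
MERVL-int_dup103, chr1:98766614-98766713, + strand: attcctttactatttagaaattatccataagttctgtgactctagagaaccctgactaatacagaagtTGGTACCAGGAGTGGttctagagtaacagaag
The third is the whole of MT2A_dup4109, an LTR fragment far from any gene that was almost silent in control NPCs, with no capitals.
MT2A_dup4109, chr7:145002976-145003108, − strand: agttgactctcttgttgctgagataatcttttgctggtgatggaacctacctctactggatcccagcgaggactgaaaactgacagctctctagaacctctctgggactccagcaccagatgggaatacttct
The run of the MERVL copy, searched on both strands from 300 bases before to 30 bases after the start of each internal part, was found at 714 of 2569 MERVL-int copies (27.8%) and at 24 of 3896 MERVL_2A-int copies (0.616%). The form of the Tcfl5 element was found at 33 and 16 of them. The run of the MERVL copy had been picked as the most frequent form at MERVL-int starts that differs from the Tcfl5 run by a single base. Its high count at MERVL-int copies therefore follows from the choice. Neither form occurred on either strand of 32851 mouse promoters of 300 bases (RefSeq, GRCm38.p6), where other runs of 15 bases were not counted for comparison. These are matches of letters and not tests of a function.

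Trim28 reads were examined first, since they test the labels. In NPCs the 6 knockout libraries held 36.8 to 73.5 CPM (counts scaled to a library size of 1e6) of Trim28 with a median of 47.8, below both controls at 157 and 204, a log2 fold change of −1.82 (adjusted p = 0.0310, edgeR quasi-likelihood test). The cortex of Emx-KO animals held 6.07, 8.52 and 8.86 CPM against 20.8, 19.0 and 21.4 in the controls (log2 fold change −1.39, adjusted p = 3.8e-04). In the Cas9-GFP nuclei the knockout libraries held 93.7 to 105 CPM against 143 in the control, and in the Stop-Cas9-GFP nuclei 88.4 to 127 against 105, and neither difference was called. Guide RNAs introduce small insertions and deletions that need not lower the reads of a gene, so this check of the CRISPR nuclei is partial. The Trim28-flox nuclei went against their labels. The libraries labelled knockout held 130 to 146 CPM and those labelled control 25.6 to 31.6 CPM (log2 fold change 2.26, adjusted p = 2.7e-06), so these 8 libraries are written below as labelled, and no direction of the effect of Trim28 is read from them.

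Libraries held 8790346 to 25345083 gene counts, beside which ERVL subfamilies took 5713 to 29245 counts and individual ERVL copies 18220 to 75735 uniquely mapped reads. In NPCs the correlations between libraries ran from 0.811 to 0.992, with the knockout library g3_845 at 0.939 or below against every other. In the Trim28-flox nuclei, library ctrl_822 (labelled control) and library ko_823 (labelled knockout) correlated at 0.985 with each other and at 0.963 or below with the rest. Values for subfamilies are CPM of all TE subfamily counts, and those for single copies and genes are CPM of gene counts. A feature was called at an adjusted p under 0.05 (Benjamini-Hochberg over all features of the table) and a log2 fold change beyond 0.5. The study's methods call the NPC groups biological replicates. The labels do not say how same-group libraries are related, so the p-values measure the spread between these samples, which may be technical.

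ERVL took a small share of TE expression throughout, and this share was lower in the cortex of Emx-KO animals than in controls. ERVL counts were 1.97%, 1.90% and 1.84% of all TE subfamily counts in the 3 Emx-KO cortices and 2.17%, 2.21% and 2.15% in the controls, with no overlap. As CPM of gene counts, the same libraries held 341 to 501 for ERVL against 473 to 500, which overlapped. The share also depends on its denominator, all TE subfamily counts. Of all 739 subfamilies tested in the cortex, 29 were called higher in Emx-KO and 0 lower, and their part in the lower share was not tested. In NPCs the share was 1.55% to 1.91% (median 1.78%) against 1.77% and 1.84% in the controls. Relative to gene counts, all 6 Trim28-KO NPC libraries stood above the controls, at 640 to 819 CPM against 574 and 616. This was not particular to ERVL. With gene-count library sizes 89.1% of all 810 tested subfamilies and 85.5% of the 69 ERVL subfamilies had log2 fold changes above 0 in NPCs. These are bulk measurements, in which fewer cells of a type and less RNA per cell cannot be told apart.

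MERVL itself was detected in every library, and neither its internal part nor its LTR was called in any experiment. MERVL-int, the internal part, stood at 1657, 3214, 2338, 3477, 2048 and 2312 CPM in the Trim28-KO NPC libraries g3_845, g3_870, g4_848, g4_873, g13_851 and g13_876, and at 1725 and 2146 CPM in the controls. The mean was 2508 ± 699 CPM (SD, n = 6) against 1936 ± 297 (SD, n = 2), and 4 of the 6 knockout libraries were above both controls (log2 fold change 0.37, SE 0.25, adjusted p = 0.810, edgeR). MT2_Mm, the LTR that carries the MERVL promoter, had the same order among the knockout libraries, with 818, 1867, 1165, 1948, 970 and 1129 CPM against 756 and 1099. The 2 highest libraries for both features, g3_870 and g4_873, carried different guides, and the log2 fold change of MT2_Mm was 0.50 (SE 0.33, adjusted p = 0.804). The label numbers of these libraries form 2 runs with 1 control each. Against the control of its own run MT2_Mm was higher in 6 of 6 knockout libraries and MERVL-int in 5 of 6. How many of all subfamilies reach such counts was not determined. The labels do not explain the runs, which were not taken as pairs, and neither feature was called with the run as replicate block.

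In the 2 lines of nuclei with CRISPR, MERVL-int was not higher in knockout libraries on average. The Cas9-GFP knockout libraries held 1760, 1611, 1470 and 1629 CPM against 1852 in the control, all 4 below it (log2 fold change −0.20, SE 0.13). The Stop-Cas9-GFP knockout libraries held 1770, 1410, 1707 and 1949 against 1921 (−0.17, SE 0.18). MT2_Mm stood at 646, 598, 504 and 504 CPM against 631 in the first line and at 677, 347, 635 and 756 against 644 in the second, where the g3 library was the lowest. With 1 control library per line, the spread of the controls was not measured and the test rests on that of the knockout libraries.

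Trim28-flox nuclei labelled knockout held 1338, 1646, 1919 and 890 CPM of MERVL-int and those labelled control 1647, 1817, 1517 and 736 CPM, a log2 fold change of 0.02 (SE 0.30). The lowest value of each label was in the pair of libraries ko_823 and ctrl_822 that resembled each other. Emx-KO cortices held 2409, 2039 and 2035 CPM of MERVL-int against 2337, 2428 and 2148 (−0.09, SE 0.09), and 1344, 1291 and 1228 CPM of MT2_Mm against 1344, 1650 and 1340 (−0.16, SE 0.10, adjusted p = 0.618).

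**Figure D1:**
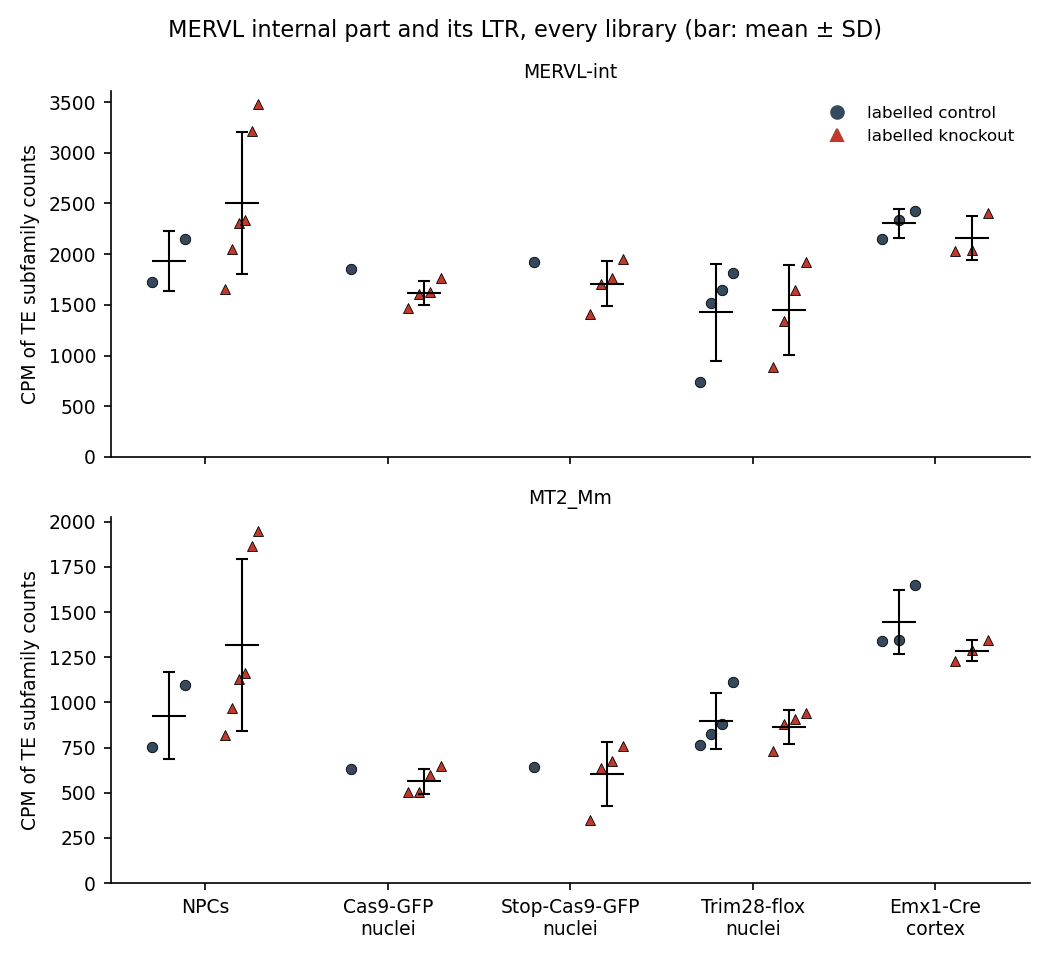
MERVL-int (upper) and MT2_Mm (lower) in every library, in CPM of TE subfamily counts (y axis), for the 5 experiments (x axis). Circles are libraries labelled control, triangles libraries labelled knockout, and bars the mean ± SD where there are 2 or more. Knockout and control values overlap for both features in every experiment except MERVL-int in the Cas9-GFP nuclei, where the knockout libraries reach 1760 CPM and the control is at 1852.

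The older relatives of MERVL were not called either. MERVL_2A-int stood at 1454 ± 178 CPM (SD, n = 6) in Trim28-KO NPCs and 1499 ± 72.1 (SD, n = 2) in controls (log2 fold change −0.04), and its log2 fold change was 0.24 in the Cas9-GFP nuclei, 0.04 in the Stop-Cas9-GFP nuclei, 0.14 in the Trim28-flox nuclei and −0.12 in the cortex. MT2A, MT2B, MT2B1, MT2B2 and MT2C_Mm, the LTRs of the older MT2 lineages, had log2 fold changes between −0.23 and 0.19 in all 5 experiments. RMER15, a rodent LTR, lay between −0.08 and 0.06. In the Emx-KO cortex all 8 MERVL and MT2 members had log2 fold changes below 0, from −0.18 to −0.01, and 2 of them, MT2A and MT2B1, did not overlap between the groups, where 58 of all 739 tested subfamilies were lower without overlap. Mean MT2B1 was 780 ± 39.6 CPM (SD, n = 3) against 881 ± 30.5 (SD, n = 3), a log2 fold change of −0.18 (SE 0.09, adjusted p = 0.517). None of the 8 was called, and in Trim28-KO NPCs 2 of the 8 had positive and 6 negative log2 fold changes.

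No ERVL subfamily was called by edgeR in any of the 5 experiments with library sizes from subfamily counts. With sizes from gene counts 1 was called in NPCs (LTR84b) and 4 in the Cas9-GFP nuclei (LTR16B, ERVL-int, ERVL-B4-int and MER21C), all higher. On that scale 89.1% of all 810 subfamilies in NPCs and 80.0% of all 967 in the Cas9-GFP nuclei had log2 fold changes above 0. The share of all subfamilies called on it was not counted. With sizes from subfamily counts, 69 ERVL subfamilies passed the filter on low counts in NPCs, against a background of 1% of all 800 tested subfamilies called higher. Of the 69, 3 had an unadjusted p under 0.05, where 8.5% of all subfamilies did. In the cortex 59 were tested against a background of 3.92% called higher, and 5 had an unadjusted p under 0.05 (background 12.3%). In the same tests 8 of 239 and 23 of 225 ERVK subfamilies were called, while 0 of 84 and 0 of 81 ERVL-MaLR subfamilies were.

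In the Cas9-GFP, Stop-Cas9-GFP and Trim28-flox nuclei no subfamily of any family was called, a background of 0%. There 93, 96 and 84 ERVL subfamilies were tested, of which 10, 3 and 1 had an unadjusted p under 0.05, against 9.9%, 2.86% and 2.94% of all subfamilies. DESeq2, run as a second tool, called 1 ERVL subfamily in NPCs, LTR84b, and 0 in each of the other 4 experiments. The share of all subfamilies that DESeq2 called was not counted.

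The median log2 fold change of the tested ERVL subfamilies was −0.04 in NPCs (all subfamilies −0.02), −0.00 in the Cas9-GFP nuclei (0.04), 0.05 in the Stop-Cas9-GFP nuclei (0.02), 0.03 in the Trim28-flox nuclei (0.00) and −0.12 in the cortex (−0.01). The last was the only one of the 5 more than 0.1 below the median of all, with 15 of the 59 cortical members higher and 44 lower. These medians depend on the scale. With library sizes from gene counts, the median of all subfamilies moved to 0.30 in NPCs and 0.36 in the Cas9-GFP nuclei, and to between 0.03 and 0.13 in the other 3. The share of ERVL subfamilies above 0 then moved from 42.0% to 85.5% in NPCs, from 48.4% to 76.1% in the Cas9-GFP nuclei and from 25.4% to 42.4% in the cortex. On this scale the ERVL median stood 0.02 below that of all subfamilies in NPCs (0.27) and 0.11 below it in the cortex (−0.03).

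**Figure D2:**
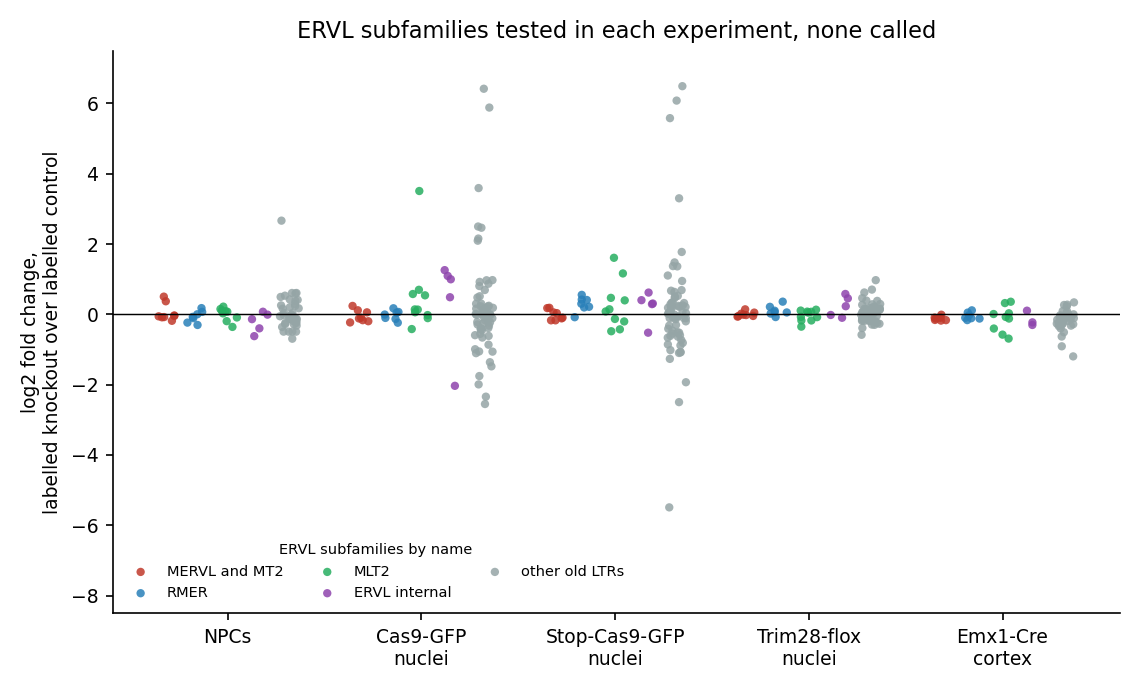
Log2 fold change of labelled knockout over labelled control (y axis) for each ERVL subfamily tested in the 5 experiments (x axis), coloured by name group. Each point is 1 subfamily, none of which was called. MERVL and MT2 members lie between −0.23 and 0.50 everywhere, and the values beyond 2 belong mostly to old LTRs in the nuclei with 1 control library.

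The ERVL subfamilies with the smallest p-values were mostly old LTRs with few counts. In NPCs these were LTR84b, MER77 and RLTR28. MER77, an old LTR shared among mammals, stood at 21.8 to 30.8 CPM in the 6 knockout libraries and at 42.8 and 41.1 in the controls (log2 fold change −0.69, SE 0.22, adjusted p = 0.274). RLTR28 had −0.30 (SE 0.12, adjusted p = 0.515). In the cortex LTR40A1 stood at 7.08, 23.3 and 16.9 CPM against 38.5, 35.2 and 34.8 (log2 fold change −1.20, SE 0.38, adjusted p = 0.143), MLT2D at 66.1, 55.9 and 77.6 against 101, 92.9 and 122 (−0.69, SE 0.22, adjusted p = 0.144), and LTR33A_ had −0.91 (SE 0.29, adjusted p = 0.148). All 3 were chosen by their p and had no overlap between the groups.

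In the Cas9-GFP nuclei the internal parts of the older ERVL elements were higher and HERVL40-int lower than in the only control. Such separation was common there, since 252 of all 970 tested subfamilies were higher and 231 lower than this control in every knockout library. ERVL-B4-int stood at 155, 121, 134 and 147 CPM against 65.3 (log2 fold change 1.10, SE 0.32, adjusted p = 0.255), ERVL-int at a mean of 79.4 ± 11.2 CPM (SD, n = 4) against 33.2 (1.26, SE 0.42, adjusted p = 0.323), and ERVL-E-int at 38.6 ± 14.0 (SD, n = 4) against 19.3 (1.00, SE 0.63). HERVL40-int stood at 18.8, 15.1, 30.3 and 13.8 CPM against 80.2 (−2.03, SE 0.53, adjusted p = 0.255). With gene-count library sizes ERVL-B4-int had 1.41 (adjusted p = 0.0245) and ERVL-int 1.57 (adjusted p = 0.0458), and the median of all subfamilies rose as well, to 0.36. The old LTR LTR16B had a log2 fold change of 3.59 (SE 1.07, adjusted p = 0.255). In the Stop-Cas9-GFP nuclei, the same guides in the other line, the log2 fold changes were 0.40 for ERVL-B4-int, −0.52 for ERVL-int and 0.31 for ERVL-E-int, so ERVL-int had the opposite sign, a difference between the lines that was not tested. There the smallest p-values were those of MER68C (−5.49), RMER10A (0.56) and LTR16C (0.69), and RMER10A stood at 1142 to 1411 CPM in the 4 knockout libraries against 834 in the control. In the Trim28-flox nuclei LTR16B1 (0.97), LTR16D (0.70) and LTR101_Mam (−0.58) came first, all with overlapping groups and an adjusted p of 1.00.

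LTR84b, an old LTR, was the ERVL subfamily with the smallest p-value in NPCs, and its subfamily counts differed widely from the uniquely mapped reads of its copies. The subfamily counts were 73, 33, 28, 21, 30 and 9 reads in the knockout libraries g3_845, g3_870, g4_848, g4_873, g13_851 and g13_876 and 3 and 6 in the controls. All 6 knockout libraries were higher, and library g3_845, which correlated least with the others, was the highest. The difference just missed the threshold (SE 0.56, adjusted p = 0.0661), and with gene-count library sizes it passed it (adjusted p = 0.0126). Without library g3_845 the log2 fold change was 2.40 (adjusted p = 0.0163). When the subfamily was summed from uniquely mapped reads instead, the log2 fold change was 0.02 (adjusted p = 0.978). The controls held 135 and 140 such reads, so most of them are not in the subfamily counts. The reads of single copies are thus not parts of those counts, and the reason was not tested.

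Among the uniquely mapped reads the copy dup113, in an exon of the heat shock factor gene Hsf2, outweighed the others and was not called. It held 121, 135, 131, 119, 102 and 33 reads in the knockout libraries in the same order and 127 and 130 in the controls (log2 fold change −0.06). In both controls this copy alone held more reads than the whole subfamily count. The copy dup97 held 21, 13, 4, 10, 6 and 2 reads against 0 and 0, which is at least 3.42-fold higher when each control is set at 3 counts, with an adjusted p of 0.104. It lay at chr9:102503003-102503121, 2629 bases from Ky, a muscle gene. In the cortex the same copy held 7, 3 and 2 reads in the Emx-KO and 0 in all 3 controls, and it had no reads in any of the 3 sets of nuclei.

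Around dup97 the rise was shared by elements of other families. Of 7 other TEs tested within 15 kb in NPCs, 6 were called higher, 3 of them ERVL-MaLR elements (ORR1E_dup12336, ORR1E_dup12337 and MLT1A0_dup5412) and the others a B4A, a MIR and an L1M5 element. The nearest gene, Ky, had a log2 fold change of 1.83 in NPCs (SE 0.50, adjusted p = 0.438) and rose in the cortex, from 1.38, 0.869 and 0.888 CPM in controls to 3.86, 3.82 and 3.01 in Emx-KO (1.75, adjusted p = 0.00205). Whether these reads belong to 1 transcript was not tested.

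The effect on LTR84b also differed between experiments. In the Trim28-flox nuclei it stood at 34.0, 13.0, 13.4 and 19.6 CPM in libraries labelled knockout and 21.2, 11.95, 24.4 and 24.3 in those labelled control, and in the cortex at 66.1, 72.2 and 67.5 against 64.7, 57.8 and 48.3. A fit over the 3 experiments with 2 or more controls gave a difference of 2.68 on the log2 scale between the NPC and Trim28-flox contrasts (SE 0.62, adjusted p = 0.0286, edgeR), where 1.09% of 921 subfamilies were called. Between the NPC and cortex contrasts it was 2.39 (SE 0.66, adjusted p = 0.228), where 0.109% were called. Of 85 ERVL subfamilies compared in each of the 3 pairs of contrasts, LTR84b was the only one called, and none was between the cortex and Trim28-flox contrasts, where 1.74% of all subfamilies were. The labels of the Trim28-flox nuclei go against their Trim28 reads, and the sign of that contrast enters the first difference.

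**Figure D3:**
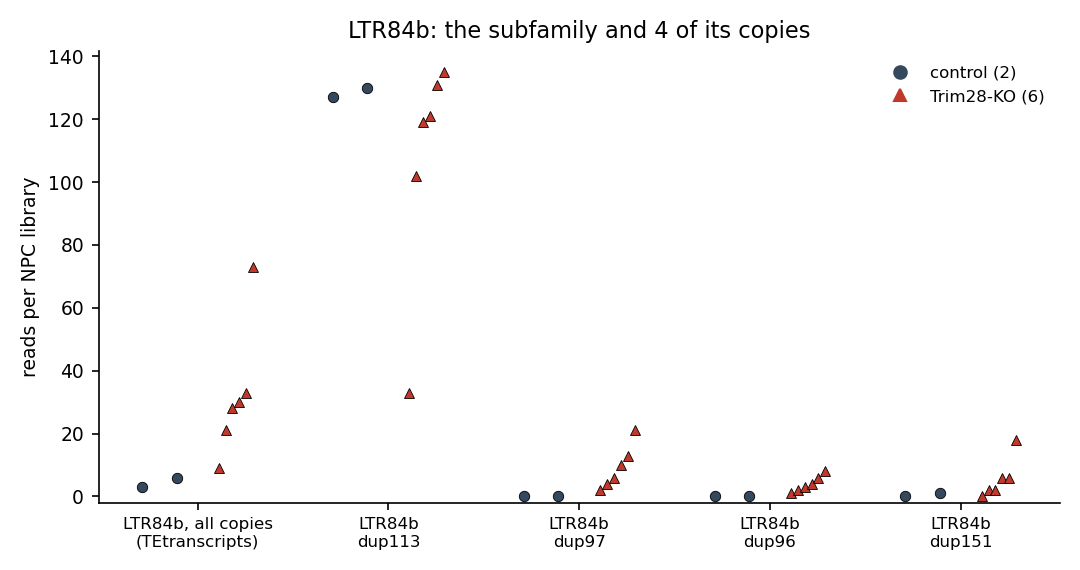
Reads per NPC library (y axis) of the LTR84b subfamily as counted with multimapping reads, and uniquely mapped reads of 4 of its copies (x axis). Circles are the 2 controls and triangles the 6 Trim28-KO libraries. The copy in the Hsf2 exon (dup113) held 127 and 130 reads in controls, more than the subfamily count of either, while dup97 and dup96 were at 0 in both.

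At single copies, a few ERVL insertions were called while the large majority carried few or no reads. In NPCs 14835 of the 118581 copies had at least 1 uniquely mapped read and 846 passed the filter on low counts. Of these, 4 were called higher and 0 lower, a share near the background of 0.55% of all 35091 tested TEs called higher, and 2 of the 4 are pieces of 1 element. Of the 846 copies, 47 had an unadjusted p under 0.05, where 4.61% of all TEs did. The same test called 64 of 2522 ERVK, 18 of 2851 ERVL-MaLR and 10 of 587 ERV1 copies. The median log2 fold change was 0.21 for ERVL copies and 0.20 for all TEs.

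The leading locus in NPCs was a MERVL_2A element inside an intron of Tcfl5, on the opposite strand to this gene for a basic helix-loop-helix transcription factor of the male germ line. Its larger internal piece, MERVL_2A-int_dup454 (chr2:180631764-180632805, + strand, 1042 bases), held 20, 29, 35, 32, 34 and 17 reads in the knockout libraries g3_845, g3_870, g4_848, g4_873, g13_851 and g13_876 and none in either control. The second piece, MERVL_2A-int_dup455 (chr2:180632785-180633514), held 7, 9, 9, 15, 17 and 5 reads against 0 and 0. All 3 guides gave reads at both pieces, and the controls none. With each control library set at 3 counts, the pieces were at least 11.1-fold and 4.04-fold higher (adjusted p = 9.5e-04 and 0.0214, edgeR).

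The whole element spans 3268 bases (chr2:180631133-180634400), from a left to a right MT2B1 LTR. The left LTR, MT2B1_dup1005, held 7, 15, 8, 6, 16 and 3 reads and the right one, MT2B1_dup1006, 3, 12, 14, 7, 11 and 4, with 0 in both controls at each (adjusted p = 0.0562 and 0.0924). Both LTRs thus had reads in every knockout library but missed the threshold. Their sequences were identical at 275 of 354 aligned bases (77.7%), where LTRs are identical when a retrovirus inserts. Both LTRs were called without library g3_845, and when every copy with at least 10 counts in all was tested.

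The element was not alone in this region. Of 8 TEs tested within 15 kb that were no piece of it, 3 were called higher, the ERVK elements RLTR19-int_dup309 and RLTR53_Mm_dup64 and the Alu element B1F1_dup2653. The gene itself rose, from 40 and 17 reads in control NPCs to 502, 461, 390, 451, 407 and 254 (log2 fold change 4.07, SE 0.34, adjusted p = 0.00361). The copy counts do not separate the strands, so reads of Tcfl5 RNA and of the element, which point in opposite directions, cannot be told apart.

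Tcfl5 was also higher in the Emx-KO cortex, with 233, 264 and 218 reads against 17, 7 and 27 (log2 fold change 4.29, SE 0.27, adjusted p = 2.7e-06), but the intronic element was nearly silent there. MERVL_2A-int_dup454 held 2, 0 and 4 reads in Emx-KO and 0, 1 and 0 in controls, below the filter. In the Cas9-GFP nuclei the piece held 6, 1, 28 and 0 reads against 10 in the control, and in the Stop-Cas9-GFP nuclei 9, 8, 21 and 2 against 10, so reads at this locus overlapped with the control in both lines. The gene held 17, 39, 83 and 28 reads against 0 in the Cas9-GFP nuclei (adjusted p = 0.299) and 25, 90, 48 and 29 against 21 in the Stop-Cas9-GFP nuclei (log2 fold change 0.91, SE 0.76, adjusted p = 1.00), higher than the only control in all 8 libraries and not called. In the Trim28-flox nuclei the gene stood at 3.27, 3.83, 1.87 and 7.07 CPM in libraries labelled knockout and at 10.9, 14.2, 16.0 and 14.6 in those labelled control (log2 fold change −1.79, SE 0.33, adjusted p = 0.182).

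**Figure D4:**
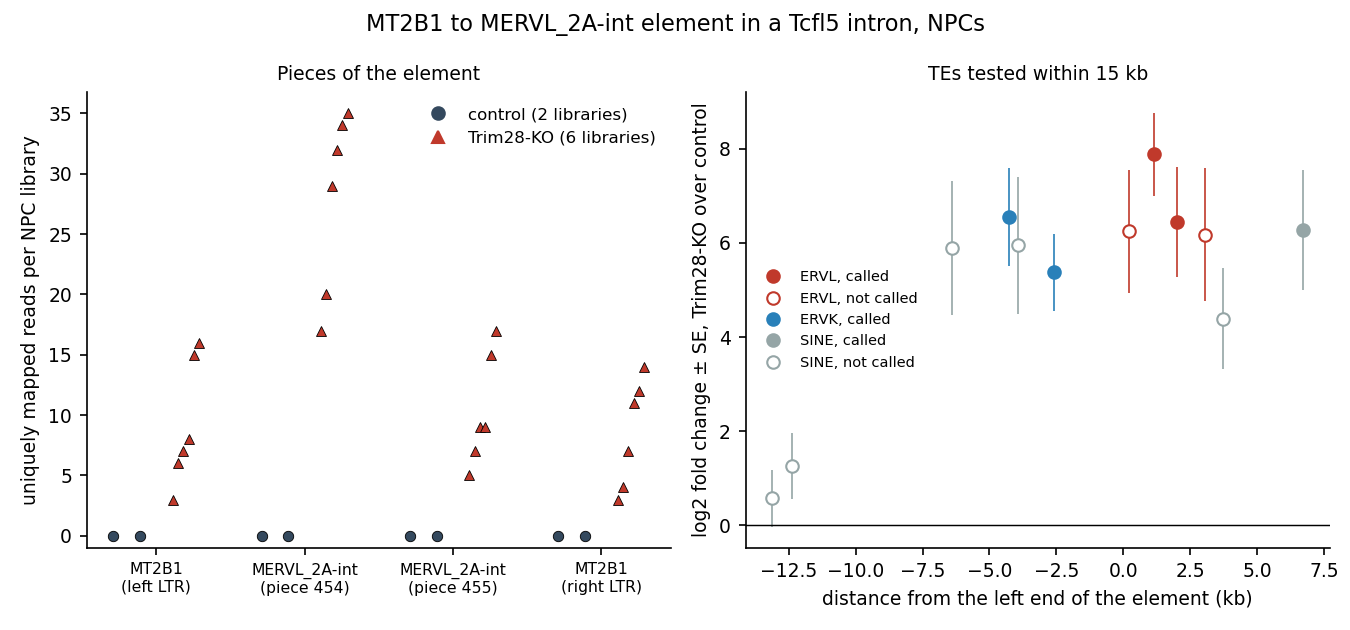
Left, uniquely mapped reads per NPC library (y axis) at the 4 pieces of the element in the Tcfl5 intron, with circles for 2 controls, all at 0, and triangles for 6 Trim28-KO libraries, from 3 to 35. Right, log2 fold change ± SE (y axis) of the TEs tested within 15 kb by distance in kb from the left end of the element (x axis), where filled points were called, and where the fitted values of copies at 0 in controls set no bound on the fold.

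The other 2 copies called in NPCs were MT2A LTRs. MT2A_dup4109 (chr7:145002976-145003108, − strand), whose sequence is given above, held 21, 143, 90, 95, 47 and 28 reads against 0 and 4 in the controls (log2 fold change 5.28, SE 0.94, adjusted p = 0.0161). Every knockout library was above both controls. It lay 63051 bases from the nearest gene, the cell cycle gene Ccnd1, which ranged from 206 to 3240 CPM in the knockout libraries and from 667 to 3001 in the controls (log2 fold change 0.11, SE 0.86, adjusted p = 1.00), and no other TE within 15 kb was tested. In the other 4 experiments the copy held 0 to 3 reads in any library.

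MT2A_dup7639 (chr12:105901427-105901691, − strand, 265 bases) overlapped an exon of the gene model Gm19554 on the opposite strand. It held 158, 118, 89, 117, 106 and 72 reads in the knockout libraries and 26 and 43 in the controls (log2 fold change 1.92, SE 0.32, adjusted p = 0.0103). Gm19554 itself stood at 30.5 to 45.2 CPM against 8.16 and 11.0 (log2 fold change 1.92, adjusted p = 0.0115), so copy and gene changed to the same extent. Reads over the shared exon can enter both counts. In the cortex the copy held 11 to 17 reads in Emx-KO and 7 to 11 in controls (1.06, SE 0.38, adjusted p = 0.216).

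Among the MERVL-int copies, dup103 (chr1:98766677-98772035, 5359 bases, 1123 bases from Gm29460) held the most reads in NPCs. Its reads were 149, 39, 65, 36, 89 and 9 in the knockout libraries in the order above and 16 and 13 in the controls. In CPM all 6 knockout libraries were above both controls, library g13_876 only just, with a log2 fold change of 2.31 (SE 0.69, adjusted p = 0.361). The copy was named for its reads after they were seen.

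In the cortex of Emx-KO animals 10 ERVL copies were called, 8 higher and 2 lower, of 406 tested. The background was 2.67% of 14556 TEs called higher and 0.254% lower, and 44 of the 406 had an unadjusted p under 0.05, where 8.24% of all TEs did. The same test called 125 of 1355 ERVK, 37 of 1288 ERVL-MaLR and 15 of 315 ERV1 copies higher. Of the 10, 5 overlapped exons, 3 lay in introns and 2 between genes, and for 8 of them the gene that held or lay nearest to the copy was called in the same direction. Of all 16271 genes tested, 1.33% were called in either direction. The copy counts do not separate the strands, so reads at the 5 copies over exons can enter the counts of copy and gene alike.

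The highest fitted fold change among the 10 was that of MT2B1_dup3381, an LTR 3065 bases from Pgbd5, a gene derived from a domesticated transposase. It lay at chr8:124442723-124443190 and held 32, 47 and 28 reads in the Emx-KO cortices against 1, 4 and 0 in controls (log2 fold change 4.76, SE 0.48, adjusted p = 7.4e-09). All 4 other TEs tested within 15 kb were called higher as well. Pgbd5 did not share the rise, with 50.1 to 65.1 CPM in Emx-KO and 70.5 to 74.6 in controls (−0.32, adjusted p = 0.277).

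This LTR was also present in adult nuclei and silent in NPCs. It held 11, 18, 9 and 30 reads in Cas9-GFP knockout nuclei against 3, and 8, 34, 19 and 23 in Stop-Cas9-GFP knockout nuclei against 0 in the control, where it was at least 5.74-fold higher with an adjusted p of 1.00 (unadjusted 0.0031). In the Trim28-flox nuclei it held 2, 0, 1 and 0 reads in libraries labelled knockout and 10, 13, 11 and 15 in those labelled control, under the filter for a test.

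MLT2B1_dup102 (chr1:168114942-168115319) and RMER15-int_dup1120 (chr6:85865788-85866507) rose together with genes they overlap. The first held 48, 41 and 51 reads against 5, 1 and 2 (log2 fold change 4.56, SE 0.40), and the gene model Gm20711 over it on the opposite strand had 4.51 (adjusted p = 1.2e-05). The second held 62, 67 and 30 reads against 2, 2 and 5 (4.52, SE 0.37), and Nat8f2, an acetyltransferase-like gene in whose exon it lies on the same strand, rose from 0.399, 0.326 and 0.577 CPM to 9.31, 9.19 and 8.71 (4.36, adjusted p = 5.2e-07). Both TEs tested near RMER15-int_dup1120 were ERVK elements, RLTR31M_dup104 and MMERVK9C_I-int_dup406, and both were called higher.

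Of the remaining 5 that rose, 3 were RMER15 LTRs. RMER15_dup4663 (chr4:147515838-147516149), 2352 bases from the zinc finger gene Zfp982, held 28, 26 and 10 reads against 7, 5 and 7 (log2 fold change 2.17, SE 0.38), and Zfp982 had 2.46 (adjusted p = 8.0e-04). RMER15_dup4668 (chr4:147753949-147754196), in an exon of the related gene Zfp984, held 20, 37 and 23 against 17, 16 and 18 (1.10, SE 0.30, adjusted p = 0.0343), beside 0.95 for Zfp984. RMER15_dup11723 (chr10:80122017-80122353), in an intron of the kinase gene Stk11, held 14, 21 and 17 against 7, 4 and 6 (2.06, SE 0.40), while Stk11 was not called (0.25, adjusted p = 0.565).

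RMER10A_dup4423 (chr19:42059259-42059355) in an intron of the mitochondrial enzyme gene Hoga1 held 17, 20 and 8 reads against 2, 3 and 5 (log2 fold change 2.56, SE 0.48), beside 3.10 for Hoga1. LTR41_dup254 (chr9:46924817-46925079) in an intron of the gene model 2900052N01Rik held 16, 20 and 21 against 7, 7 and 10 (1.71, SE 0.38), beside 1.84 for the gene, and all 9 other TEs tested within 15 kb were called higher, 2 of them ERVK.

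The 2 copies that fell were neighbouring pieces of 1 old internal part, ERV3-16A3_I-int, in an exon of Etnppl, an astrocyte gene for a phospholyase. Piece dup204 (chr3:130635738-130635895) held 6, 6 and 7 reads against 41, 19 and 26 (log2 fold change −1.67, SE 0.36, adjusted p = 0.0034), and dup205 (chr3:130636002-130636198) 7, 5 and 5 against 25, 16 and 25 (−1.47, SE 0.39, adjusted p = 0.0255). Etnppl fell with them, from 29.2, 29.3 and 25.9 CPM in controls to 17.7, 8.10 and 13.5 in Emx-KO (−1.11, adjusted p = 0.0185). Both pieces lie on the opposite strand to the gene.

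**Figure D5:**
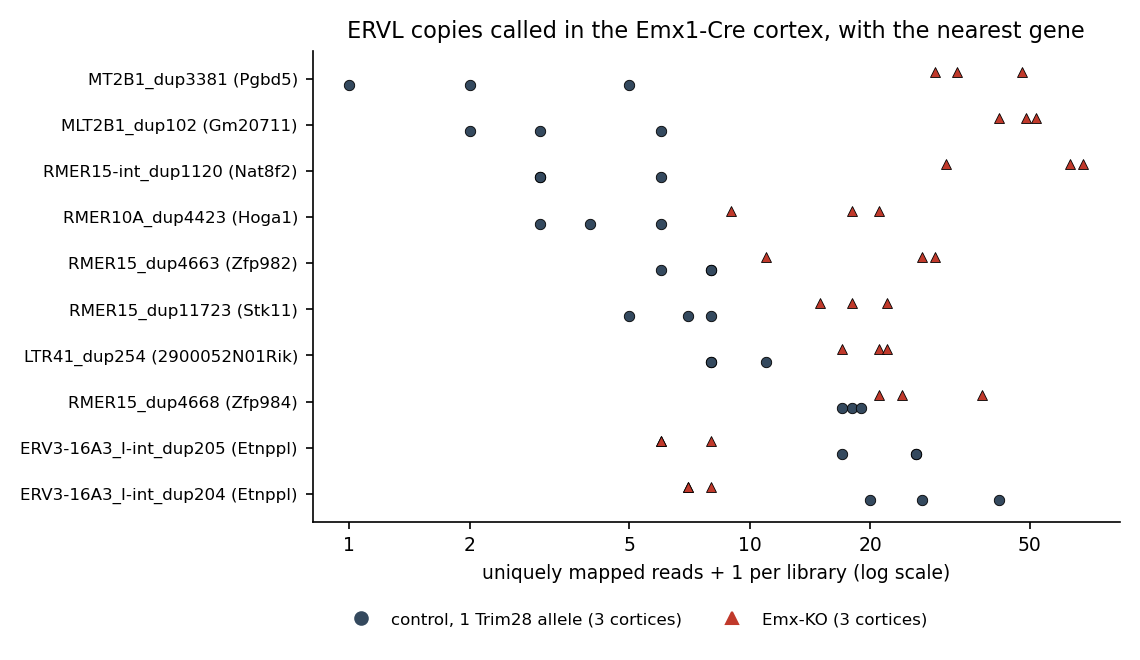
Uniquely mapped reads plus 1 per cortex library (x axis, log scale) of the 10 ERVL copies called in the Emx1-Cre cortex, each with the gene that holds or lies nearest to it (y axis). Circles are the 3 controls, with 1 excised Trim28 allele by the study's methods, and triangles the 3 Emx-KO cortices. The triangles lie to the right for 8 copies and to the left for the 2 pieces in Etnppl, without overlap.

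Some of these copies had the same direction in NPCs, below the threshold. RMER15_dup4668 had a log2 fold change of 0.97 (unadjusted p = 0.0104), RMER15_dup11723 1.10 (0.0218), RMER10A_dup4423 1.18 (0.0267) and RMER15-int_dup1120 3.97 (0.0207), with adjusted p-values from 0.619 to 0.922. Zfp982 in NPCs stood at 0.586 to 1.38 CPM in the knockout libraries and at 0.0537 and 0.149 in the controls (3.15, SE 0.60, adjusted p = 0.128).

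In the nuclei from CRISPR-treated adult mice 1 ERVL copy was called per line, each against a single control library with 1 read. In the Cas9-GFP nuclei 2545 copies were tested, and MT2A_dup3698 (chr7:45390013-45390435), in an intron of the splicing factor gene Snrnp70, held 41, 27, 48 and 44 reads against 1 (log2 fold change 4.97, SE 1.24, adjusted p = 0.0408). The background was 0.163% of 105426 TEs called higher and 0.00379% lower, and 233 of the 2545 had an unadjusted p under 0.05, where 9.42% of all TEs did. The copy had 28 to 55 reads against 51 in the Stop-Cas9-GFP nuclei and 15 to 43 against 26 and 36 in NPCs. Controls with few reads also occurred elsewhere, with 0 to 28 reads in Trim28-flox libraries labelled control and 3 to 5 in cortex controls. With both lines in 1 fit the log2 fold change was 0.69 (adjusted p = 1.00).

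In the Stop-Cas9-GFP nuclei 2744 copies were tested, and MER21B_dup793 (chr9:15254414-15254930), in an intron of Vstm5, a neuronal membrane protein gene, held 55, 16, 126 and 32 reads against 1 (log2 fold change 5.41, SE 1.17, adjusted p = 0.0357). The background was 0.0114% of 113560 TEs called higher and 0.000881% lower, and 41 of the 2744 had an unadjusted p under 0.05, where 1.85% of all TEs did. In the Cas9-GFP nuclei it held 12 to 38 reads against 20, and without the library of 3 pooled guides the adjusted p was 1.00 with a log2 fold change of 4.77. Neither Snrnp70 nor Vstm5 was called.

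In the Trim28-flox nuclei 0 of 1073 tested ERVL copies were called by edgeR, where 0.00641% of 46810 TEs were called, all lower, and 11 had an unadjusted p under 0.05, where 1.52% of all TEs did. DESeq2 called 1, MER77_dup250 (chr8:124477299-124477540), which held 0, 0, 0 and 1 reads in libraries labelled knockout and 28, 9, 21 and 100 in those labelled control (log2 fold change −6.77 by edgeR, adjusted p = 0.249). It lies 37641 bases from Pgbd5, the nearest gene, on the chromosome of MT2B1_dup3381, and had 0 to 4 reads in all other libraries. Copy and LTR were both named after their values were seen in this experiment.

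The ERVL copies with the highest levels were not called. In NPCs these were RLTR28_dup1908 in an exon of the ribonucleoprotein gene Hnrnpul2 (log2 fold change −0.02), MERVL_2A-int_dup3653 in an exon of the gene model B230354K17Rik (0.24) and RMER10A_dup1991, 320 bases from the cohesin loader gene Mau2 (0.31, SE 0.23, all 6 knockout libraries above both controls). In the cortex they were MER68B_dup115 in an exon of Wdr13, MLT2B5_dup237 in an exon of Fam81a and again RLTR28_dup1908, with log2 fold changes of −0.03, −0.11 and 0.14. In both lines of CRISPR nuclei RLTR28_dup555 in an intron of the calcium sensor gene Hpca (0.49 and 0.23, in the first line with all 4 knockout libraries above the control) and LTR16A1_dup259 in an intron of the kinase gene Prkcb (−0.10 and 0.38) were among the first 3. Copies over exons held 49.2% of all uniquely mapped ERVL reads in NPCs, 57.3% in the cortex, 39.3% in the Trim28-flox nuclei and 28.6% and 26.4% in the Cas9-GFP and Stop-Cas9-GFP nuclei. Per kilobase, copies on the opposite strand to the exon held 1.36 to 2.52 times the reads of those on the same strand, so the counts of such copies include reads of the gene.

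Uniquely mapped reads of MERVL came from a minority of its copies. Between 27.2% and 35.2% of the 2600 MERVL-int copies had a uniquely mapped read in a given experiment, and the 10 copies with the most reads held 29.6% to 39.6% of them. Of the 2667 MT2_Mm LTRs, 12.2% to 25.8% had reads, and the first 10 held 48.1% to 56.0%. MT2_Mm copies within 500 bases of a MERVL-int were 57.9% of the LTRs and held 29.9% of MT2_Mm reads in NPCs, 45.3% in the cortex, and 24.0%, 26.3% and 20.2% in the Cas9-GFP, Stop-Cas9-GFP and Trim28-flox nuclei. MT2_Mm LTRs without a MERVL-int within 500 bases thus held the larger part of these uniquely mapped reads in all 5. Copies alike in sequence lose reads in unique mapping. In NPC library g3_870, MT2_Mm had 1350 counts with multimapping reads and 643 uniquely mapped reads, and MERVL-int 2324 and 1147. MT2A (691 and 3204) and MERVL_2A-int (1136 and 3592) went the other way there, as did ERVL as a whole (14010 and 39368). In the Cas9-GFP control MT2_Mm itself had 590 counts and 677 uniquely mapped reads. The 2 kinds of count thus differ in more than multimapping reads, and the reason was not tested. How the multimapping reads divide between the copies was not tested.

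Genes of the 2-cell stage, many of which use MERVL LTRs as promoters in the embryo, had almost no uniquely mapped reads. Reads shared by near-identical genes, such as members of a cluster, are not in these counts. The counts alone thus do not show that the genes were silent. Of the 23 listed genes in the table, which include the Zscan4 cluster, Zfp352, Usp17l and Tdpoz genes, 20 had no read in any NPC library, and 20 to 22 had none in the other experiments. Only Sp110 passed the filter, in 3 of the 5 experiments, and it was not called in any (0.194% of genes were called in NPCs, 0.0409% in the Trim28-flox nuclei, 1.33% in the cortex and 0% in both CRISPR lines). The 28 listed regulators of MERVL include the methyltransferase Setdb1, the chromatin assembly factor genes Chaf1a and Chaf1b and the demethylase Kdm1a. Of these, 23 to 26 were tested per experiment and Trim28 itself was the only one called in any, in NPCs, the Trim28-flox nuclei and the cortex.

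Dppa2, an activator of MERVL in embryonic stem cells, was singled out after its values were seen. It stood at 0.214 to 3.27 CPM in the 6 Trim28-KO NPC libraries (median 1.73) and at 0 and 0.0497 in the controls (log2 fold change 5.69, SE 1.45, unadjusted p = 0.00324, adjusted p = 0.365). In the cortex it stood at 0.284 to 0.413 CPM in Emx-KO and 0 to 0.0444 in controls, too low to be tested. Its partner Dppa4, and Duxf3 and Zfp42, were at 0 in every NPC library.

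Markers of the labelled cells were present in every experiment. In NPCs all 5 progenitor markers (Nes, Sox2, Pax6, Vim and Hes5) were tested and none was called, and the excitatory markers Slc17a7, Tbr1 and Neurod6 summed to 0.672 CPM or less. The general neuron markers Rbfox3, Snap25, Syt1 and Map2 summed to 1080 to 1760 CPM in knockout NPCs and 1213 to 1412 in controls. Of these 4, 2 had an unadjusted p under 0.05 (edgeR) and none was called. In the Trim28-flox nuclei they summed to 1574 to 1809 CPM as labelled knockout and 1530 to 1819 as labelled control. Striatal neuron markers (Ppp1r1b, Drd1, Drd2 and Adora2a) summed to 1108 to 1593 CPM in Cas9-GFP knockout nuclei against 1661 in the control and to 1177 to 1642 in Stop-Cas9-GFP knockout nuclei against 1656. The excitatory cortical markers, which striatal neurons lack, summed to 14.7 to 158 CPM against 20.7 in the first line and to 17.9 to 102 against 11.1 in the second, with all 3 genes higher in each fit and none called. In the cortex the meningeal fibroblast markers Dcn, Col1a1 and Col1a2 summed to 7.09 to 12.2 CPM in Emx-KO and 15.6 to 18.7 in controls, and Col1a2 was called lower (log2 fold change −1.08, adjusted p = 0.0244). The inhibitory markers Gad1 and Gad2 summed to 486 to 552 CPM in Emx-KO and 555 to 616 in controls, and the endothelial markers Cldn5 and Pecam1 to 21.9 to 34.2 against 34.4 to 36.3. The 5 progenitor markers summed to 76.1 to 89.7 CPM against 69.8 to 74.1, and no gene of these 3 lists was called. These sums moved beside the lower ERVL share of the Emx-KO cortex, and their part in it was not tested.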

How the data were processed

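RNA-seq of the 5 experiments was analysed from counts that the authors deposited: multimapping-aware counts per gene and TE subfamily (TEtranscripts) and uniquely mapped read counts per individual TE and per gene (the submitters' processing notes name STAR 2.6.0 and featureCounts of Subread 1.6.3, on GRCm38.p6). Of the individual TE table, 6 columns matched no sample and were not used. Columns that the files call flexcas were taken as the Stop-Cas9-GFP libraries, the only ones with these guides left beside Cas9-GFP, although the labels do not use that word. Subfamilies, single TEs and genes were each tested over the whole table with edgeR 4.0.16 (quasi-likelihood, filterByExpr, TMM, R 4.3.3), with library sizes from subfamily counts for subfamilies and from gene counts for TEs and genes. DESeq2 1.42.0, other library sizes, filters and each library left out were alternatives. The code was tested on simulated data. Copies were placed against genes with bedtools 2.31.1 and searched for motifs in Python 3.11.15.

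Members were set by family name and gene lists by textbook knowledge, both with earlier results of these data known. The text names Trim28, the MERVL, MT2, RMER15 and ERVL internal subfamilies, in each experiment the 3 ERVL subfamilies with the smallest p-value, each ERVL copy called (at most 10), the 3 copies with the highest mean CPM and the gene holding or nearest to a named copy. LTR84b copies, elements around named copies, MERVL-int_dup103, MER77_dup250 and Dppa2 were added after their values were seen. A further marker list is not reported here.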

Additional observations from a re-analysis of the deposited data

Results flagged for a closer look

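Among 84 groups of 4 to 6 libraries, 9 held a library whose distance from the rest was large for its group, where chance alone flags about 1 in 20 groups. In the Trim28-flox libraries labelled control, library ctrl_822 stood at 98.4 CPM of ERVL-int (the others at 29.9 to 40.0) and library ctrl_798 at 18.8 CPM of LTR16D (6.49 to 8.48). Library ko_823, labelled knockout, stood at 2472 CPM of RMER15 (1711 to 1833). In the Stop-Cas9-GFP knockout libraries, the g3 library stood low for MT2A, at 920 CPM (1110 to 1135), and for MT2B1, at 607 CPM (699 to 708). The library of pooled guides stood high for RMER10A, at 1411 CPM (1142 to 1175), and the g4 library for RMER15, at 1483 CPM (1181 to 1229). The library of pooled guides was also flagged for MER68C, at 1.42 CPM from 2 reads. The others had 0 there, so any read would have been flagged. In the Cas9-GFP knockout libraries the g3 library stood at 2.33 CPM of MT2A_dup3698 (3.64 to 3.90).

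A pair of results differed between experiments. The knockout effect on LTR84b was higher in NPCs than in the Trim28-flox nuclei as labelled by 2.68 on the log2 scale, by the interaction test. MT2B1_dup3381 was higher in every Emx-KO cortex than in the controls and lower in every Trim28-flox library labelled knockout than in those labelled control, mean differences that lie 2.66 CPM apart. That difference was not tested, and the labels of the Trim28-flox libraries go against their Trim28 reads.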

How the results depend on the processing

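None of the 16 called copies changed direction under any alternative. Of 65 named values that were not called, 47 changed sign under at least 1 alternative, none of them beyond 0.52 on the log2 scale as reported, and with gene-count library sizes the ERVL median moved from −0.04 to 0.27 in NPCs and from −0.00 to 0.31 in the Cas9-GFP nuclei. The counts of calls stayed within 1.5 times of the reported one in 92 cases, rose beyond that in 18 and fell in 12. For NPC subfamilies (0 called), DESeq2 and gene-count library sizes each called 1, LTR84b, and leaving out 1 library gave 0 to 1. For NPC copies (4), DESeq2 called 7, a minimum of 10 counts in total 9, and leave-one-out 1 to 7, the lowest without ctrl_842 and the highest without knockout library g3_845. The NPC label numbers form 2 series, and with the series as replicate block 13 copies were called (12 higher, 1 lower) and 0 subfamilies. Deviations of same-series libraries correlated at −0.147 to 0.247 (6 pairs, median 0.128) and those of libraries from different series at −0.505 to −0.174 (9 pairs, median −0.377). Every same-series pair was thus above every other pair, but not each was above 0.1 and the labels do not explain the numbers, so they were not taken as pairs. With the block MERVL-int had an adjusted p of 0.412 and MT2_Mm of 0.366. In the other experiments no paired analysis by label number was possible because the groups share fewer than 2 replicate numbers.

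For Cas9-GFP subfamilies (0), gene-count library sizes called 4, among them ERVL-B4-int and ERVL-int, and leave-one-out 0 to 2. For Cas9-GFP copies (1), DESeq2, the minimum of 10 counts and both lines in 1 fit called 0, TE library sizes and leaving out exonic copies each 2, and leave-one-out 0 to 26, the 26 without the library of pooled guides. For Stop-Cas9-GFP copies (1), DESeq2, the minimum of 10 counts and both lines in 1 fit called 0, and leave-one-out 0 to 1. For Trim28-flox copies (0), DESeq2 and the minimum of 10 counts called 1, and libraries ctrl_822 and ko_823 as a replicate block, or left out, called 2 (chosen after seeing the data), MER77_dup250 and MT2A_dup6664, all lower. For cortical copies (10), DESeq2 called 8, the minimum of 10 counts 29, leaving out exonic copies 5, and leave-one-out 7 to 14.

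Of the 4 NPC calls, MERVL_2A-int_dup454 held under all 14 alternatives, MT2A_dup4109 under 13 of 14, MT2A_dup7639 under 11 of 13 and MERVL_2A-int_dup455 under 9 of 14. Without ctrl_842 or ctrl_867, MT2A_dup7639 had an adjusted p of 0.430 or 0.103 and MERVL_2A-int_dup455 of 0.227 or 0.239, and without ctrl_842 MT2A_dup4109 had 0.206. In the cortex 6 of 10 calls held under every alternative. RMER15_dup4668, both ERV3-16A3_I-int pieces and LTR41_dup254 missed the threshold with DESeq2 (adjusted p = 0.395, 0.0996, 0.439 and 0.0687) and without control 64. MT2A_dup3698 and MER21B_dup793 each rest on 1 control library with 1 read. The cause of these shifts was not tested. Copies of few reads limit what could be tested, since 846 of 14835 copies with reads passed the filter in NPCs and 406 in the cortex.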
